A study of Arabidopsis thaliana with 4 samples.

Results

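The genes described here encode glutathione S-transferases of Arabidopsis thaliana roots. The rule that chose them uses names and no measured value, though it was set with earlier results of these data known. It takes genes whose annotated symbol is GSTU, GSTF, GSTL, GSTZ or GSTT followed by a number, with or without the prefix AT. The annotation of the array gave 15 such genes among 16548 genes with a row of their own, 1 row for each. Of these, 11 belong to the tau class (GSTU), 3 to the phi class (GSTF) and 1 to the lambda class (GSTL). The TAIR10.1 gene table names 27, 13 and 3 genes in these classes, 2 in the zeta class and 3 in the theta class, and the genes of the family without a named row were not analysed here.

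The study hybridised root RNA of 4 genotypes in the Columbia accession to Affymetrix Arabidopsis Gene 1.0 ST arrays, with 1 array per genotype. These were wild type (WT) and the lines CEPD1ox, CEPD2ox and CEPDL2ox, which by their names overexpress 1 gene each of the CEPD family. All plants were grown at 22 °C under constant light, were moved on day 7 to a medium replete in nitrogen (NH4Cl and KNO3, each at 10 mM), and had their roots taken at 14 d. The promoter that drives each introduced gene, the number of lines per gene and the number of plants per array are not stated in the labels. There were no replicates, so no spread within a group could be measured and no test was made. Every difference below is a difference between single arrays.

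Glutathione S-transferases join the tripeptide glutathione to reactive or foreign compounds, which are then moved into the vacuole by transporters of the ABCC family. The tau and phi classes are the large plant classes and hold most of the enzymes that act on herbicides and other xenobiotics. Lambda enzymes carry a catalytic cysteine and remove glutathione from its conjugates rather than adding it. CEPD1, CEPD2 and CEPDL2 are small class III glutaredoxin-like polypeptides that travel from shoot to root and report nitrogen demand. Class III glutaredoxins are known to bind TGA transcription factors, which act at as-1-type elements found in many promoters of detoxification genes.

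The overexpressed genes, whose names come from knowledge of their loci, were read first. CEPD2 (AT2G47880) had a log2 signal of 9.22 in CEPD2ox against 1.41 in WT, and CEPDL2 (AT3G62960) one of 5.49 in CEPDL2ox against 3.46 in WT. CEPD1 (AT1G06830) had a signal of 3.04 on the CEPD1ox-labelled array and 2.66 in WT, so its overexpression was not seen there, and every direction drawn from that array carries this limit. Root hair expansins EXPA7 and EXPA18 were read on all arrays, with log2 signals of 6.60 and 8.24 in WT, and the other 7 of 9 root markers were not analysed here. The 4 arrays correlated at Pearson's r of 0.983 to 0.984 over all rows, which are not independent replicates.

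All 15 glutathione S-transferase genes reached the filter value, a log2 signal of 2.78 on at least 1 array (the 25th percentile of all gene values). On all 4 arrays, 13 did so. GSTU15 reached it only on the CEPD1ox-labelled array, and GSTU21 only in WT and CEPDL2ox, so the ratios of these genes are set against a level near background. In WT, the log2 signals of the tau genes ran from 2.49 for GSTU15 to 8.48 for GSTU26. Those of the phi genes were 4.53 for GSTF3, 6.51 for GSTF4 and 8.93 for ATGSTF13, and that of GSTL3 was 8.19. Signals of different rows depend on their probes and are not scaled per length, so they give no order of transcript levels between genes.

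**Figure D1:**
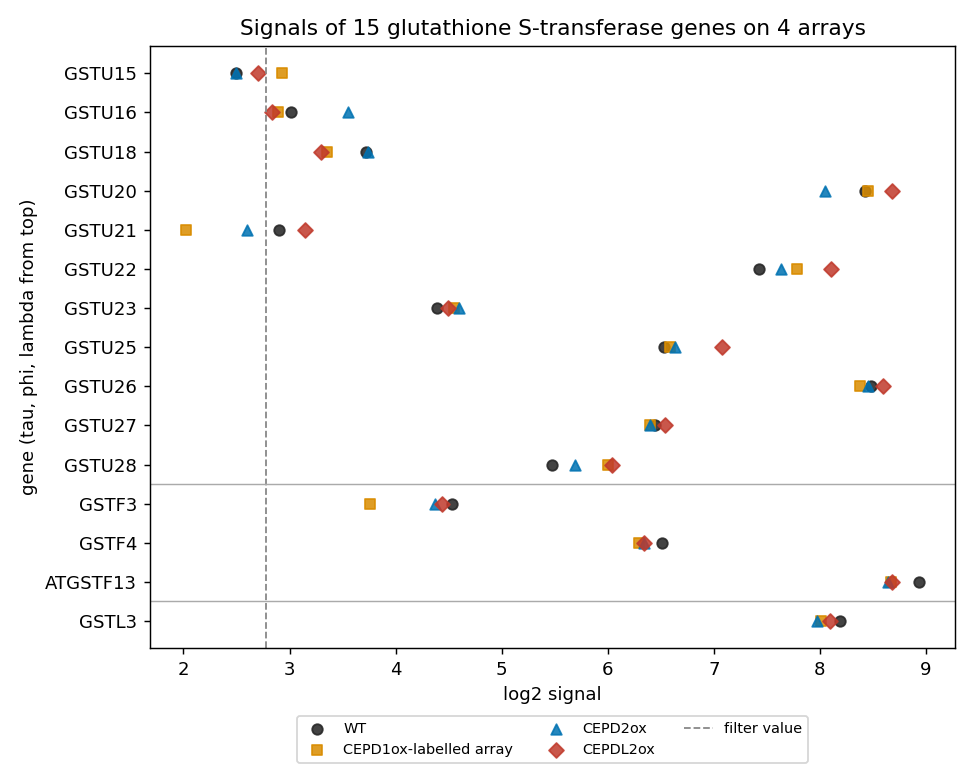
Log2 signal (horizontal axis) of each of the 15 genes (vertical axis, grouped by class with grey lines between classes) on the WT array and the 3 line arrays, 1 point per array, with the filter value of 2.78 as a dashed line. Points of a gene lie close together for GSTU23, GSTU26, GSTU27, GSTF4 and GSTL3 and are widest apart for GSTU21, from 2.03 to 3.14.

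No glutathione S-transferase gene was 2-fold higher or lower than WT in any line. Among all 13232 genes kept by the filter, 0.733% were at least 2-fold higher and 0.476% lower on the CEPD1ox-labelled array, 0.506% and 0.393% in CEPD2ox, and 0.771% and 0.491% in CEPDL2ox. A count of 0 of 15 lies near these shares and is not a result about these genes. At 1.5-fold, GSTU21 and GSTF3 were lower on the CEPD1ox-labelled array, where 2.99% of all genes were and 3.93% were higher, and GSTU22 was higher in CEPDL2ox, where 3.28% of all genes were and 3.35% were lower. In CEPD2ox no member passed 1.5-fold, beside 3.30% of all genes higher and 2.63% lower.

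The median log2 ratio of the 15 genes to WT was -0.10 on the CEPD1ox-labelled array, -0.03 in CEPD2ox and 0.10 in CEPDL2ox, against 0.00 over all genes in each line. With the arrays shifted to the same median, the CEPD2ox value was 0.00, so its sign against WT is not settled. That shift adds the same amount to every gene of an array, and it moved the median over all genes in CEPD2ox by 0.03 too. The classes had different medians but overlapping ranges. For the tau genes the median ratio was 0.03 on the CEPD1ox-labelled array, 0.02 in CEPD2ox and 0.21 in CEPDL2ox. For the phi genes it was -0.27, -0.17 and -0.17 in the same order. The tau ratios ran from -0.87 to 0.53, from -0.37 to 0.54 and from -0.42 to 0.67. Every phi ratio lay within the tau range of its array, and the medians rest on 11 and 3 genes. The 3 comparisons share the WT array, so an error of that array enters all 3 values of a gene alike. In bulk roots, fewer cells of a type and less RNA per cell cannot be told apart.

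Above WT by any amount were 6 of 11 tau genes on the CEPD1ox-labelled array, where 50.4% of all genes were, 6 in CEPD2ox (49.3% of all genes) and 9 in CEPDL2ox (50.0% of all genes). The CEPD2ox count is not settled. With the arrays shifted to the same median, GSTU15 and GSTU26 also lay above WT there, at 0.028 and 0.002. The share of all genes above WT was not computed with that shift. None of the 3 phi genes and not GSTL3 lay above WT on any line array. The 3 signs of a gene are not independent, since they share the WT array. The share of all genes below WT on all 3 line arrays was not computed, so this is not a result about these classes. The count on the CEPD1ox-labelled array includes GSTU15, which passed the filter through that array alone, so its place there follows from the filter. These are counts of sign alone. Most of the differences behind them are small, and the plot of ratios to WT shows how many of its points lie near 0.

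**Figure D2:**
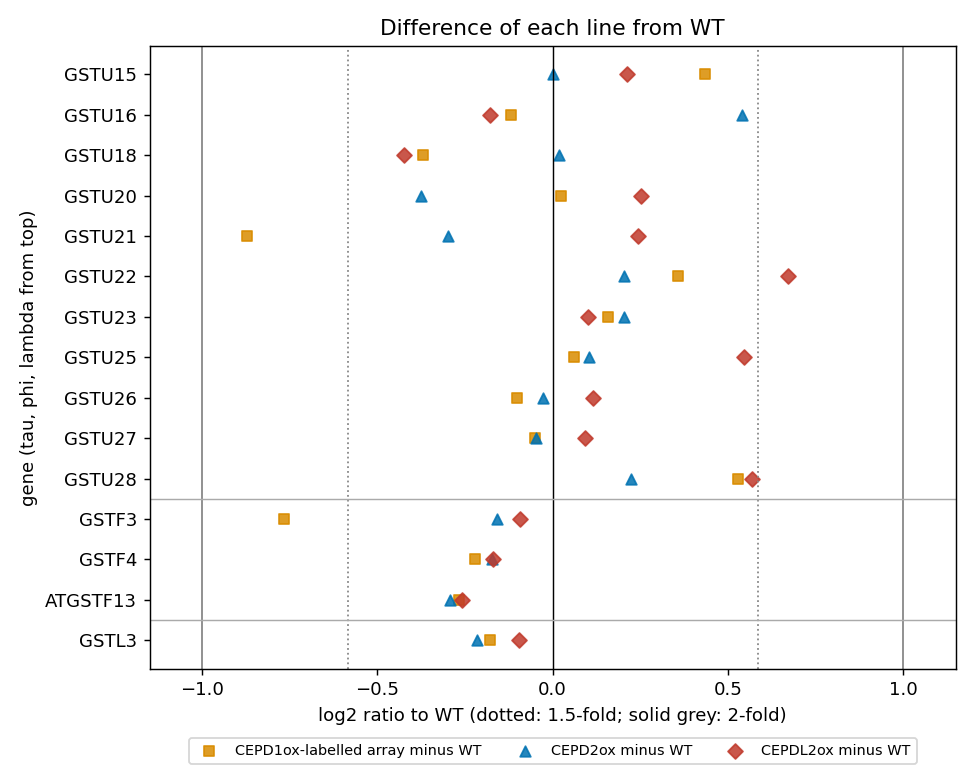
Log2 ratio to WT (horizontal axis) of each gene (vertical axis, grouped by class) on the CEPD1ox-labelled array and in CEPD2ox and CEPDL2ox, 1 point per line, with dotted lines at 1.5-fold and solid grey lines at 2-fold. No point passes 2-fold. GSTU21 at -0.87, GSTF3 at -0.77 and GSTU22 at 0.67 are the points past 1.5-fold.

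To read the size of a difference, each gene was set beside genes with a similar mean signal over the 4 arrays, since low signals vary more. The median size of the log2 difference between CEPDL2ox and WT was 0.29 where the mean signal lay below 3, 0.23 from 3 to 5, 0.15 from 5 to 7 and 0.10 at 7 or above. The 95th percentile of that size was 0.96 in the lowest band and 0.39 in the highest. Beyond the 95th percentile of its own band lay 2 of 15 members on the CEPD1ox-labelled array, 1 in CEPD2ox and 3 in CEPDL2ox. Among all genes these shares are fixed by the rule at 5.02%, 5.01% and 5.01%. The members were GSTU22 and GSTU28 on the CEPD1ox-labelled array, GSTU20 in CEPD2ox, and GSTU22, GSTU25 and GSTU28 in CEPDL2ox. All are tau genes, as are 11 of the 15 members. GSTU22 and GSTU28 each enter on 2 arrays against the same WT value. Such a percentile describes the genes of these arrays alone and says nothing of the spread between plants.

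**Figure D3:**
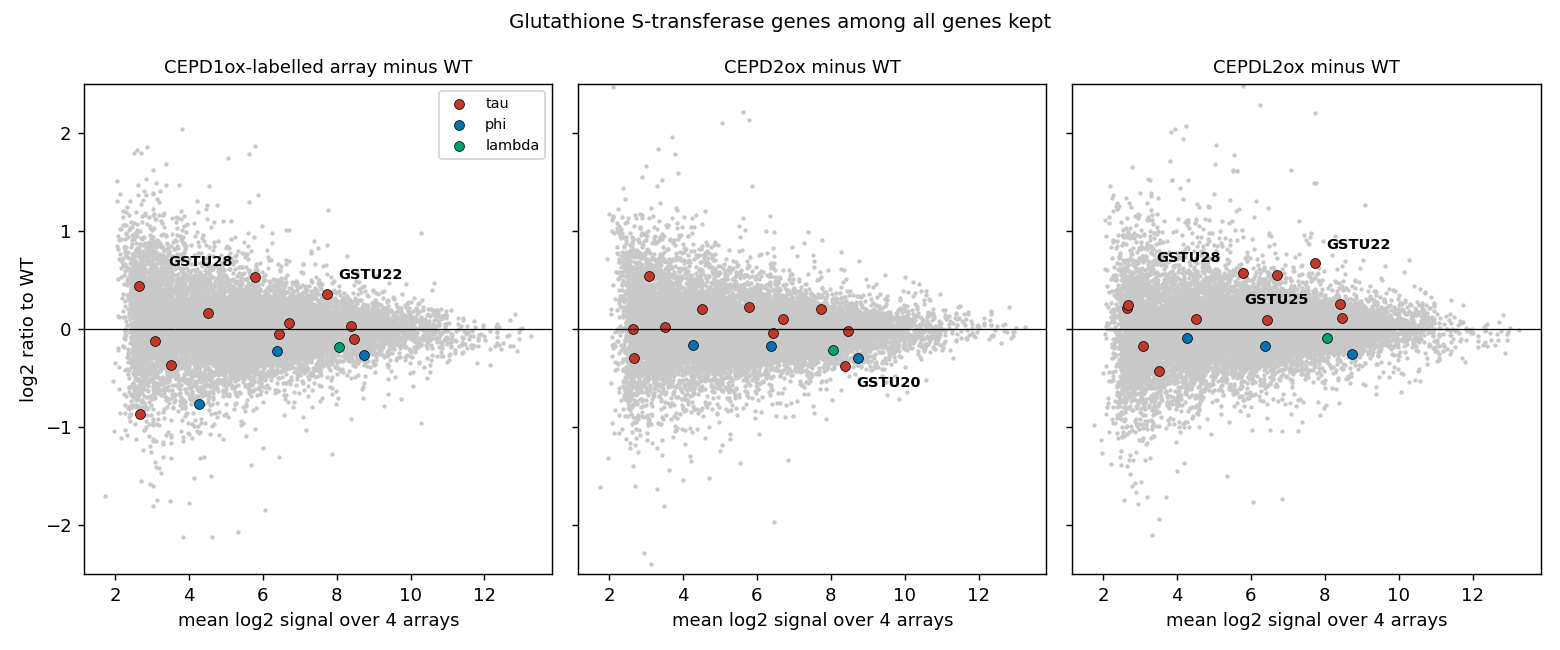
Log2 ratio to WT (vertical axis) against mean log2 signal over the 4 arrays (horizontal axis), 1 panel per line, with all genes kept in grey and the tau, phi and lambda genes in red, blue and green. Names mark members beyond the 95th percentile of their signal band, and 1 gene on the first panel, 2 on the second and 2 on the third lie beyond 2.5 in size and are not drawn.

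GSTU22 (AT1G78340), a tau gene, had log2 signals of 7.43 in WT, 7.79 on the CEPD1ox-labelled array, 7.63 in CEPD2ox and 8.10 in CEPDL2ox. WT was the lowest and CEPDL2ox the highest of the 4 arrays. Its log2 ratios to WT were 0.36, 0.20 and 0.67, the last a 1.59-fold difference, beside 95th percentiles of 0.36, 0.34 and 0.39 in its band. Before rounding, the first of these ratios exceeded its percentile by less than 0.01.

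GSTU28 (AT1G53680) and GSTU22 had the highest mean ratios of the 15 genes, at 0.44 and 0.41, and their order turned to 0.40 and 0.44 without the CEPD1ox-labelled array. The log2 signals of GSTU28 were 5.47 in WT, 5.9998 on the CEPD1ox-labelled array, 5.69 in CEPD2ox and 6.04 in CEPDL2ox. All 3 line arrays lay above WT, and CEPD2ox lay nearest to it. The ratios were 0.53, 0.22 and 0.57, or 1.44-, 1.17- and 1.48-fold, with a mean of 0.44 ± 0.19 (SD over the 3 lines, which leaves out the error of the shared WT value). In the same order, the 95th percentiles in its band were 0.51, 0.48 and 0.53.

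GSTU25 (AT1G17180), whose enzyme is known to conjugate the explosive TNT, was higher in CEPDL2ox and close to WT elsewhere. Its log2 signals were 6.53 in WT, 6.59 on the CEPD1ox-labelled array, 6.63 in CEPD2ox and 7.07 in CEPDL2ox. The CEPDL2ox value stood 1.46-fold above WT and 1.40- and 1.36-fold above the other lines. On the log2 scale it differed by 0.545 from WT and 0.485 from the CEPD1ox-labelled array. Both only just passed the 95th percentiles of 0.531 and 0.480 in its band. The difference of 0.44 from CEPD2ox lay within one of 0.56. GSTU26 (AT1G17190), its direct neighbour in the gene order of chromosome 1, had ratios of -0.10, -0.03 and 0.12 in the order CEPD1ox, CEPD2ox and CEPDL2ox. The CEPD2ox value of GSTU26 turned to 0.00 with the arrays shifted to the same median.

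GSTU20 (AT1G78370), also known as FIP1, a partner of the jasmonate-conjugating enzyme FIN219/JAR1, differed more between CEPD2ox and CEPDL2ox than it did from WT in any line. Its log2 signals were 8.42 in WT, 8.45 on the CEPD1ox-labelled array, 8.05 in CEPD2ox and 8.68 in CEPDL2ox. WT lay between the lines. The ratio to WT was -0.37 in CEPD2ox, beside a 95th percentile of 0.34 in its band, and 0.25 in CEPDL2ox, beside one of 0.39.

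GSTU20, GSTU21, GSTU22 and GSTU23 lie in 1 stretch of chromosome 1. In the TAIR10.1 gene order GSTU20 and GSTU21 are direct neighbours, 2 annotated genes separate GSTU21 from GSTU22, none of them protein-coding, and 1 such gene separates GSTU22 from GSTU23. GSTU20, GSTU21 and GSTU22 were highest on the CEPDL2ox array, and their lowest arrays were CEPD2ox, the CEPD1ox-labelled array and WT in that order. Outside this stretch, GSTU25, GSTU26, GSTU27 and GSTU28 were highest on the CEPDL2ox array too. The share of all genes highest there was not computed, so this is not a trait of the stretch. GSTU23 (AT1G78320) varied little, from 4.39 in WT to 4.60 in CEPD2ox. Genes of such a cluster are close in sequence, and whether their rows share probes was not tested.

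GSTU21 (AT1G78360) had log2 signals of 2.90 in WT, 2.03 on the CEPD1ox-labelled array, 2.60 in CEPD2ox and 3.14 in CEPDL2ox. The 4 values straddle the filter value. Its ratios to WT were -0.87, -0.30 and 0.24, none beyond the 95th percentiles of 0.94, 0.91 and 0.96 in its band, and the mean ratio of -0.31 was -0.03 without the CEPD1ox-labelled array.

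The other tau genes with low signals did not share 1 order of the arrays. GSTU16 (AT1G59700) had log2 signals of 3.01 in WT, 2.90 on the CEPD1ox-labelled array, 3.55 in CEPD2ox and 2.84 in CEPDL2ox, so CEPD2ox stood above the rest. GSTU18 (AT1G10360) had signals of 3.72, 3.35, 3.74 and 3.30 in the same order, with WT and CEPD2ox side by side above the others. GSTU15 (AT1G59670), separated from GSTU16 by 3 genes, had 2.49, 2.93, 2.49 and 2.71. For GSTU15 the deposited WT and CEPD2ox values were equal to every digit, as they were for 65 of the genes kept. GSTU27 (AT3G43800), with a signal of 6.45 in WT, had ratios between -0.05 and 0.09.

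The phi genes showed both a narrow and a wide spread. ATGSTF13 (AT3G62760) had log2 signals of 8.93 in WT, 8.67 on the CEPD1ox-labelled array, 8.64 in CEPD2ox and 8.67 in CEPDL2ox. The lines spanned 0.04 on the log2 scale and WT lay above all of them. Its mean ratio was -0.27 ± 0.02 (SD over the 3 lines), or 1.20-, 1.23- and 1.20-fold higher in WT, and the narrow SD says nothing of the error of the WT value. None of its 3 ratios passed the 95th percentile of its band. GSTF4 (AT1G02950) had the same form at a lower signal, with 6.51 in WT and 6.29, 6.34 and 6.35 in the lines.

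GSTF3 (AT2G02930), a close relative of GSTF2, was low on 1 array. Its log2 signals were 4.53 in WT, 3.76 on the CEPD1ox-labelled array, 4.37 in CEPD2ox and 4.44 in CEPDL2ox. The value on the CEPD1ox-labelled array was 1.70-fold below WT, a ratio of -0.77 beside a 95th percentile of 0.80 in its band. The other lines lay within 0.16 of WT. Its mean ratio of -0.34 was -0.13 without the CEPD1ox-labelled array, and the median mean ratio of the phi genes moved from -0.27 to -0.17.

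GSTL3 (AT5G02790), the lambda gene, had log2 signals of 8.19 in WT, 8.01 on the CEPD1ox-labelled array, 7.98 in CEPD2ox and 8.10 in CEPDL2ox. WT was again the highest. The ratios of -0.18, -0.22 and -0.10 lay within the 95th percentiles of 0.36, 0.34 and 0.39 in its band.

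Setting the lines against each other leaves out the WT array, though each line then enters 2 of the 3 differences. GSTU21 was 2.17-fold higher in CEPDL2ox than on the CEPD1ox-labelled array, the sole member past 2-fold between lines, where 0.438% of all genes were at least 2-fold higher and 0.854% lower. The CEPD1ox-labelled array had GSTU21 below the filter value, so this fold is limited by background. Between CEPDL2ox and CEPD2ox no member passed 2-fold, beside 0.650% of all genes higher and 0.673% lower. Between CEPD2ox and the CEPD1ox-labelled array none did either, beside 0.574% and 0.680%.

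At 1.5-fold, GSTU20 was 1.54-fold higher and GSTU16 1.64-fold lower in CEPDL2ox than in CEPD2ox, where 3.54% and 4.01% of all genes were. GSTU20 differed by 0.63 on the log2 scale there, beside a 95th percentile of 0.40 in its band. GSTU16 differed by -0.72, within the 95th percentile of 0.82 in its band, and its CEPDL2ox signal of 2.84 lay little above the filter value. GSTF3 was 1.53-fold higher in CEPD2ox and 1.60-fold higher in CEPDL2ox than on the CEPD1ox-labelled array, and GSTU16 was 1.58-fold higher in CEPD2ox than there. These differences too lay within the 95th percentiles of their band. Of all genes, 3.60% were at least 1.5-fold higher and 3.71% lower in CEPD2ox than on that array, and 2.67% and 4.31% in CEPDL2ox. The median difference between CEPDL2ox and CEPD2ox was 0.21 over the 11 tau genes and 0.04 over the 3 phi genes, against 0.01 over all genes. Above 0 in that difference were 12 of the 15 members, beside 51.1% of all genes. Over the CEPD1ox-labelled array, 9 members were higher in CEPD2ox (48.0% of all genes) and 11 in CEPDL2ox (50.3% of all genes). These counts of sign are not settled. With the arrays shifted to the same median, the ratios to WT in CEPDL2ox and CEPD2ox were -0.20 and -0.14 for GSTF4. For ATGSTF13 they were -0.28 and -0.27. The difference between these 2 lines thus changed sign for both genes, as did the phi median. Shares of all genes between lines were not computed with that shift. Beyond the 95th percentile of their band between lines lay GSTU20 for CEPD2ox against the CEPD1ox-labelled array (5.02% of all genes), GSTU21 and GSTU25 for CEPDL2ox against that array (5.01%), and GSTU20 and GSTU22 for CEPDL2ox against CEPD2ox (5.02%).

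**Figure D4:**
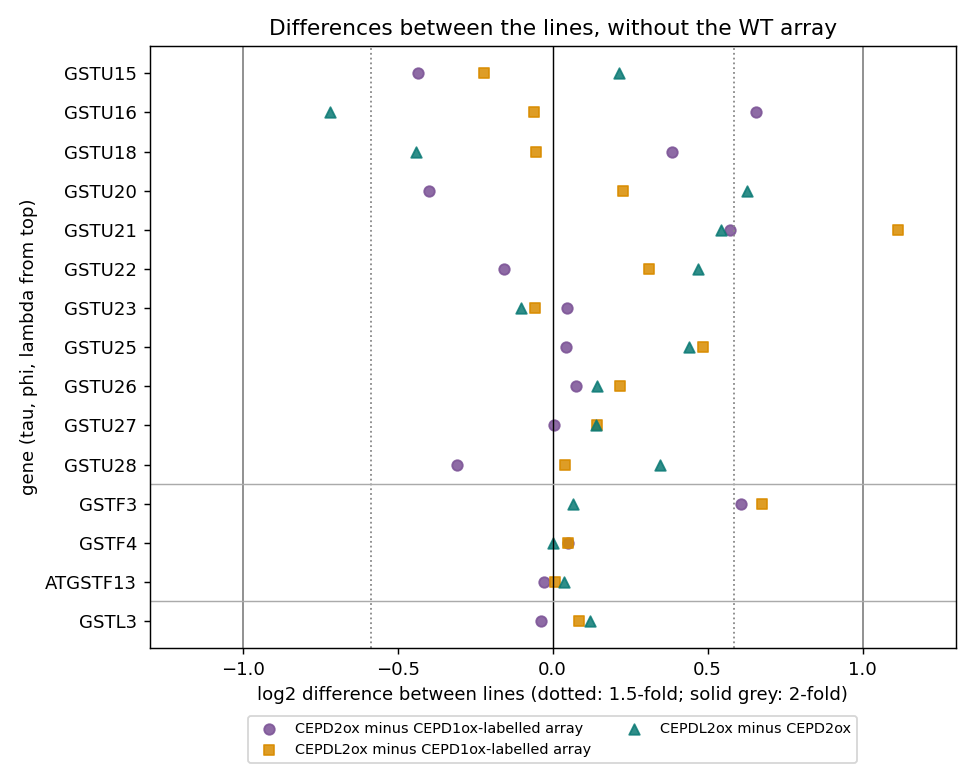
Log2 difference between 2 lines (horizontal axis) for each gene (vertical axis, grouped by class), 1 point per pair of lines, with dotted lines at 1.5-fold and solid grey lines at 2-fold. GSTU21 is the gene past 2-fold, at 1.11 for CEPDL2ox minus the CEPD1ox-labelled array, and GSTF4, ATGSTF13 and GSTL3 lie between -0.04 and 0.12 in every pair.

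The other genes of glutathione metabolism could be read only in part. Of 13 genes of glutathione synthesis and turnover, 2 had a named row, both for glutathione reductases, which restore reduced glutathione. GR1 had log2 ratios of 0.15 on the CEPD1ox-labelled array, -0.11 in CEPD2ox and 0.12 in CEPDL2ox, and GR2, whose enzyme works in plastids and mitochondria, had 0.15, 0.00 and 0.10. Of 5 other glutathione transferase-like genes, 2 had one. MGST, a membrane-bound microsomal type, had ratios of 0.09, 0.04 and 0.11, and TCHQD had 0.01, 0.11 and -0.16. None of these genes passed 2-fold. The 8 glutathione peroxidases, 7 ABCC transporters and 10 TGA factors of the lists had no named row and were not analysed here.

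Of 17 genes that respond to xenobiotics, 5 had a named row and none passed 2-fold from WT. UGT73B4, which encodes a glycosyltransferase, had log2 ratios of 0.15 on the CEPD1ox-labelled array, 0.25 in CEPD2ox and 0.50 in CEPDL2ox. Its relative UGT73B3 had -0.67, -0.42 and 0.02, and UGT73B5 had -0.25, 0.03 and 0.18. In each of the 3 the CEPDL2ox array was the highest of the lines, as it was for DTX3 and AT4G01870 below. The share of all genes with that rank was not computed, so this is not a result about these genes. DTX3, of the MATE efflux family, had 0.78, -0.16 and 0.93, set against 2.42 in WT, which is under the filter value. TolB-related AT4G01870 had -0.17, -0.27 and -0.06.

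Markers of other tissue differed between the arrays too. Of 9 photosynthesis genes used as shoot markers, 2 had a named row. PRK, the phosphoribulokinase of the Calvin cycle, had log2 signals of 4.58 in WT, 3.27 on the CEPD1ox-labelled array, 2.94 in CEPD2ox and 2.47 in CEPDL2ox, the last below the filter value. RCA, the Rubisco activase, had 6.31, 5.73, 6.14 and 5.66. The root hair expansin EXPA7 had log2 ratios of 0.12 on the CEPD1ox-labelled array, -0.02 in CEPD2ox and 0.23 in CEPDL2ox, and EXPA18 had 0.12, -0.11 and 0.39. WT thus had the highest signals of both photosynthesis genes, as it had for ATGSTF13, GSTF4, GSTF3 and GSTL3. For GSTU22, GSTU23, GSTU25 and GSTU28 it had the lowest, and for GSTU15 it tied with CEPD2ox as lowest. The share of all genes highest in WT was not computed. The part of these markers in the values of the glutathione S-transferase genes was not tested.

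**Figure D5:**
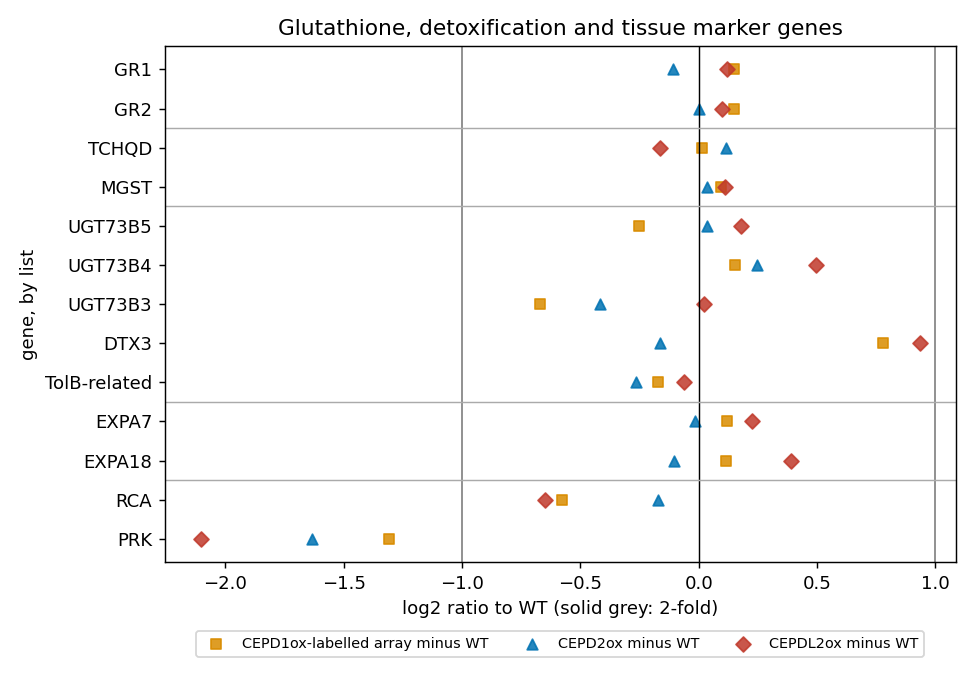
Log2 ratio to WT (horizontal axis) of the genes of glutathione metabolism, other transferase-like genes, detoxification genes, root markers and shoot markers with a named row (vertical axis, from top to bottom in that order), 1 point per line, with solid grey lines at 2-fold. PRK is the gene past 2-fold, with all 3 points between -2.10 and -1.31.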

How the data were processed

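Per the submitters' processing notes, Affymetrix Expression Console 1.3 was used by the authors to make the deposited table, which holds 1 log2 signal per array row. How rows were summarized and normalized, and the genome build, is not given in the sources used here; coordinates are therefore left out. That the scale is log2 was judged from its range, 0.431 to 13.8. Labelling started from 100 ng of total RNA.

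Of 38408 rows, 16722 had 1 annotated gene, 759 several and 20927 none, and only the first kind was named. The row with the highest mean was taken for the 148 genes with several rows. Values were used as deposited, and a fold is 2 raised to a log2 difference. The members, lists and thresholds were chosen with earlier results of these data known. The genes named were those past 2-fold in any line, the 6 highest and 6 lowest by mean ratio, the highest and lowest of each class, the 4 with the widest range between lines and, in other lists, up to 4 by the size of the mean ratio. Further genes are given to complete the set. The signal bands were set after the data were seen. Alternatives were thresholds of 1.5-fold and 3-fold, other filters, other normalizations, the mean over rows, and leaving out a line. A planned search of promoters for motifs was not run, since no sequences were used here. Computations used R 4.3.3 with limma 3.58.1 and Python 3.11.15.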

Additional observations from a re-analysis of the deposited data

How the results depend on the processing

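The count of 0 members past 2-fold from WT was the same in every line with arrays shifted to the same median, with quantile and cyclic loess normalization, with the mean over rows, with no filter, with a filter at the median (which kept 9 members) and at 3-fold. At 1.5-fold it was 2 on the CEPD1ox-labelled array, 0 in CEPD2ox and 1 in CEPDL2ox. Medians of members moved by less than 0.1 under every alternative except that of the phi genes without a line, which ran from -0.28 without CEPDL2ox to -0.17 without the CEPD1ox-labelled array, against -0.27 with all 3. For the tau genes it ran from 0.08 to 0.13 when a line was left out. Of 45 ratios of a member in a line, the sign of 2, 1 and 1 differed with shifted medians, quantile and cyclic loess normalization, all for GSTU15 or GSTU26 in CEPD2ox. No ratio moved by more than 0.05. No paired analysis was possible because each genotype has 1 array. Precision is limited by the number of arrays throughout, and signals near background limit GSTU15, GSTU21 and, on the CEPD1ox-labelled array and in CEPDL2ox, GSTU16.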
